A study of Mus musculus with 10 samples.

Results

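Granule genes encode the proteases, peroxidases, antimicrobial proteins and mediators that granulocytes and mast cells store in cytoplasmic granules. Of 34 listed granule and granulocyte genes, 32 were rows of the gene table of 17404 genes, and all 32 were among the 16725 genes tested. They were chosen by name and grouped by role: primary and secondary neutrophil granules, late neutrophil proteins, granulocyte surface and progenitor genes, transcription factors, eosinophil granules, mast cell and basophil genes, and 2 genes shared by several of these cell types. The 2 listed genes without a row were Gzmb and Fcer1a.

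The libraries were RNA-seq of long-term hematopoietic stem cells (LT-HSCs) sorted from mouse fetal livers at stage E14.5. There were 6 libraries of genotype Tnfrsf11aCre; Spi1f/f (KO) and 4 of genotype Tnfrsf11a+/+; Spi1f/f (WT), each named here by genotype and replicate number. Both groups carry floxed Spi1, the gene of the myeloid transcription factor PU.1. The Cre is driven from the Tnfrsf11a locus, which is active in yolk sac-derived macrophage precursors, so the deletion is aimed at macrophages and the sorted stem cells themselves are not the intended target. The comparison asks whether granule transcripts in stem cells differ when the livers lack these macrophages. Replicates were separate samples in the labels, with no litter given. The cells were CD150+ and the sort used antibodies against c-Kit, Sca1, CD48 and CD150, and a biotinylated set that included CD11b, CD3, Gr1 and Ter119, antigens of mature lineages.

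In neutrophil development the primary (azurophil) granules form first, at the promyelocyte stage, and carry myeloperoxidase and serine proteases. Secondary (specific) and gelatinase granules form later and carry lactoferrin, cathelicidin and metalloproteases, so their transcripts mark later stages. Eosinophils, mast cells and basophils store their own sets of basic proteins, proteases and histamine, and the fetal liver is a site where all of these lineages are made beside the stem cells.

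The libraries held 5315435 to 30941726 counts, so that 3 counts, the limit that a count of 0 allows, correspond to between 0.0970 and 0.564 CPM (counts scaled to a common library size). This limit covers counting error only. Spi1 had 168 to 2227 counts in the KO libraries and 54 to 677 in the WT libraries, which is no check of the labels because the deletion is aimed at macrophages. In bulk RNA a higher value can come from more cells of a type or from more RNA per cell, and these cannot be told apart. KO 15412, KO 15415 and WT 15418 stood apart: their summed level of 8 hepatoblast markers was 6677, 8784 and 6020 CPM, against 89.9 to 1390 CPM in the other 7 libraries. The same 3 libraries held the highest summed level of 10 erythroblast genes, 42311, 96348 and 244134 CPM, against 2577 to 19752 CPM elsewhere. Fits without these 3 libraries are therefore given beside the results below.

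Promoter sequences are shown for 4 members whose patterns the results contrast: the neighbouring primary granule genes Elane and Prtn3, the secondary granule gene Ngp and the mast cell gene Cpa3. They are the RefSeq promoter windows of build GRCm38.p6, 5′ to 3′ on the gene's strand, cut before the start of the coding transcript in the Gencode annotation, with matches in capitals. The motifs searched, on both strands, were TTNNGNAA for C/EBP factors, GAGGAA for PU.1, AACGG for MYB and GATAAG for GATA factors.
Elane, chr10:79886062-79886246, plus strand: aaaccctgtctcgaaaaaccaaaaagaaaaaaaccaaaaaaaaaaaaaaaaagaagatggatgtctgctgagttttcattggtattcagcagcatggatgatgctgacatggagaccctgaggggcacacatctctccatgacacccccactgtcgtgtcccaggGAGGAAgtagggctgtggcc
Prtn3, chr10:79879417-79879613, plus strand: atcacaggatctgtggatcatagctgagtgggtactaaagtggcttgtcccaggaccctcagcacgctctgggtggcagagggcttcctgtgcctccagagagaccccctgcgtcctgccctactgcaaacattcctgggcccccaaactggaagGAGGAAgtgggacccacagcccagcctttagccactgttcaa
Ngp, chr9:110419558-110419746, plus strand: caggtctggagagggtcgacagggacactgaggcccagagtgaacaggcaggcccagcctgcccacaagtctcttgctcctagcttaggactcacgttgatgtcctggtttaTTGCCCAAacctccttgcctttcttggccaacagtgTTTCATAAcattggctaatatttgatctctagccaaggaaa
Cpa3, chr3:20242182-20242431, minus strand: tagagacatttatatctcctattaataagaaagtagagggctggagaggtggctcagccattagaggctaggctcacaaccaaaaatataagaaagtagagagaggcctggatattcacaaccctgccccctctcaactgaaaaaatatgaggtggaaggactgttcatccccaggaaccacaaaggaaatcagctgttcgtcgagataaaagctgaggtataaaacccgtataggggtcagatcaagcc
Elane and Prtn3 each held the PU.1 letters, Ngp held the C/EBP letters at 2 places, and none of the letters searched were in the Cpa3 stretch. Over whole windows of 300 bases, 31 of the 34 listed genes had an entry, with 34 windows in all. A listed gene counted if any of its windows matched, while the share over all windows is per window. The PU.1 letters were in 15 of these 31 genes (48.4%) and in 28.3% of all 32851 windows. The C/EBP letters were in 19 of 31 (61.3%) and in 40.7% of all windows. The MYB letters were in 3 (Elane, Prtn3 and Itgam) and in 17.4% of all windows, and the GATA letters in 1 (Ms4a2) and in 7.44%. Such matches are short and describe the letters only.

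Some member transcripts were present in every library, but the level of many differed by orders of magnitude between libraries of the same genotype. No member differed between genotypes past the threshold. The members together took from 0.00847% to 0.192% of a library's counts. In low libraries much of this was Srgn and Anxa1, which many cell types express. They had 530 and 474 of 1519 member counts in KO 15409, and 1020 and 453 of 1927 in WT 15416. In KO 15412 they had 7391 and 2421 of 59285. The number of members at 1 CPM or more was 8 to 28 in the KO libraries, with KO 15409 lowest and KO 15415 highest. It was 8 in WT 15416, 15 in WT 15417, 30 in WT 15418 and 11 in WT 15420. Only 10 of the 32 members had counts in all 10 libraries: Mpo, Prtn3, Chil3, Cd177, Mmp9, Anxa1, Ly6c2, Itgam, Gfi1 and Srgn.

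**Figure D1:**
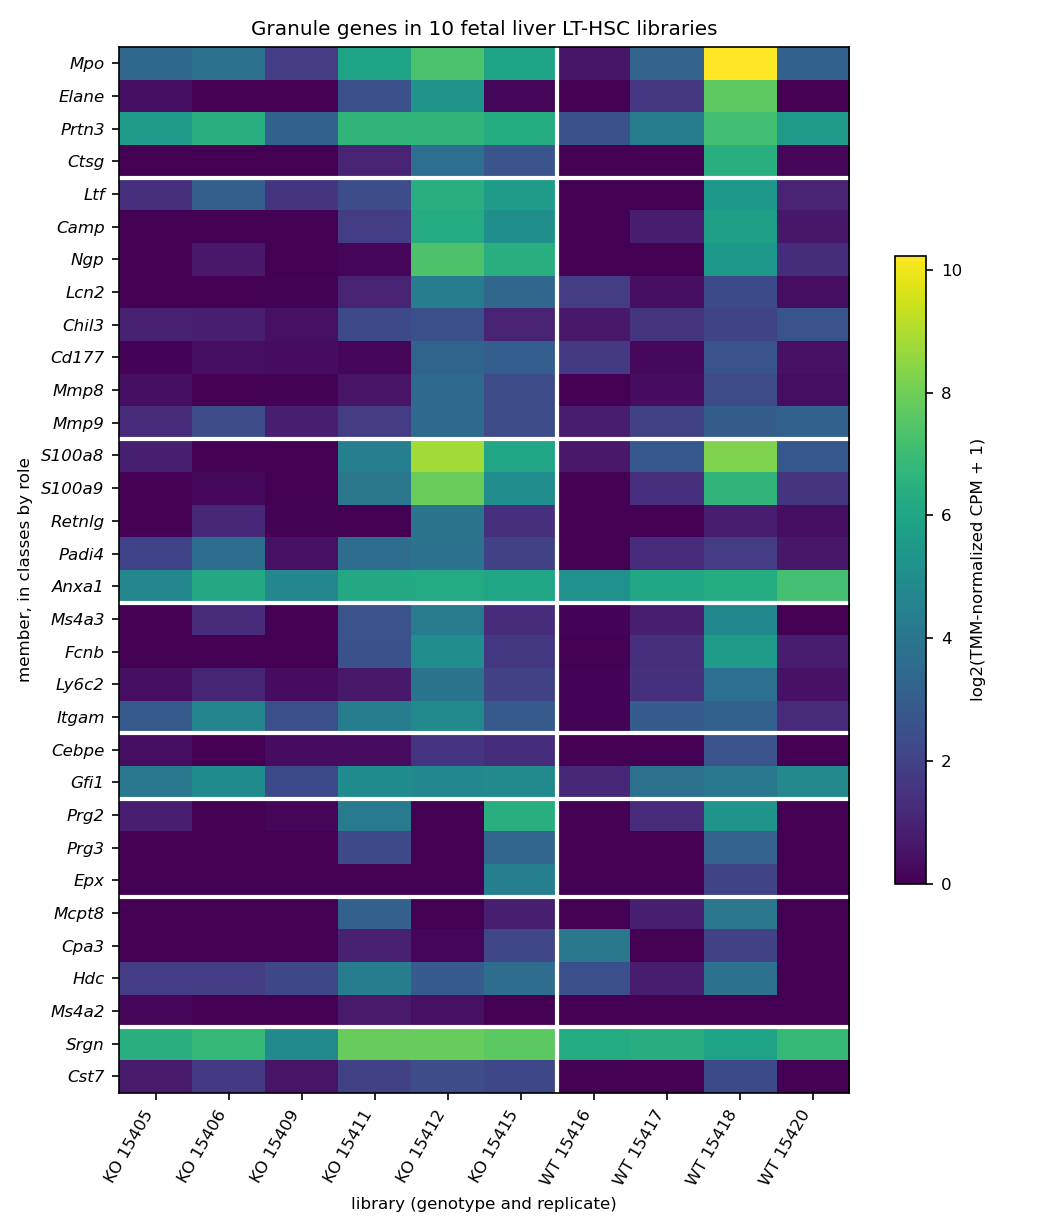
Level of each of the 32 members (rows, grouped by role) in each of the 10 libraries (columns), as log2 of TMM-normalized CPM plus 1. The bright columns are KO 15412, KO 15415 and WT 15418, while Prtn3, Anxa1, Gfi1 and Srgn are visible in nearly every column.

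Single libraries held most of the signal of single members. For the median member, the highest library held 50.5% of the summed CPM over all 10 libraries, against 19.1% for the median of all genes tested. More than 50% of the signal lay in 1 library for 17 of 32 members and for 7.71% of all genes tested. The 4134 genes with a mean CPM between the members' quartiles (2.35 and 20.7 CPM) had a median share of 19.7%, and 2.44% of them passed 50%. KO 15412 was the highest library for 14 members, WT 15418 for 8, KO 15411 for 4, KO 15415 for 3, WT 15420 for 2 and WT 15416 for 1.

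Among the primary granule genes, Mpo (myeloperoxidase, the peroxidase that makes hypochlorous acid) ranged from 2.65 to 156 CPM in the KO libraries, with a median of 36.7 CPM. In the WT libraries it was 0.531, 8.43, 1193 and 8.07 CPM in WT 15416, 15417, 15418 and 15420. WT 15418 was thus above every other library, and the other 3 WT libraries lay within or below the KO range. The log2 fold change of KO against WT was -2.58 ± 1.68 (SE; edgeR's quasi-likelihood test, Benjamini-Hochberg adjusted p = 0.442), and it turned to 3.20 (adjusted p = 0.222) without WT 15418.

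Elane, neutrophil elastase, was at 0 to 37.6 CPM in the KO libraries, with a median of 0.218 CPM. In the WT libraries it was at 0, 2.04, 205 and 0 CPM, in the same order. Ctsg, cathepsin G, was at 0 to 12.3 CPM in the KO libraries (median 0.478) and at 0, 0, 86.6 and 0.142 CPM in the WT libraries. Both genes were near 0 in most libraries of either genotype and highest in WT 15418, which held 82.1% of the summed CPM of each. Their log2 fold changes of -2.83 ± 2.15 and -2.77 ± 2.11 (SE, edgeR adjusted p of 0.520 and 0.523) became 3.36 and 6.22 without that library.

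Prtn3, proteinase 3, lies 3.07 kb upstream of Elane on chromosome 10 (79874476 to 79883174, GRCm38, plus strand; Elane at 79886247 to 79888215), yet it was detected throughout. Its level was 8.02 to 103 CPM in the KO libraries, with a median of 82.6 CPM. The WT libraries had 4.93, 18.6, 138 and 45.0 CPM, and the groups overlapped (log2 fold change 0.46 ± 0.82, SE, edgeR adjusted p = 0.810). WT 15418 held 21.8% of the summed CPM, close to the share of the median gene tested.

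The transcript tables placed most of the Prtn3 signal on a short transcript that the annotation classes as a retained intron (ENSMUST00000165982.1), not on the full-length coding transcript (ENSMUST00000006679.14). The short transcript begins 56 bases before the third exon of the full-length one and then shares its last 3 exons, 730 of the 1025 bases of the coding transcript. The coding transcript has 295 bases before the shared part. Reads within the shared bases do not tell the 2 apart, so the split is an estimate. Its start (Gencode, GRCm38) is shown because only the lower-case bases are absent from the coding transcript, with the capitals opening the shared exon.
Prtn3 short transcript, chr10:79880980-79881047, plus strand: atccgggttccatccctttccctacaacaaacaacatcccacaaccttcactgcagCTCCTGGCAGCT
Over all libraries the short transcript took 77.1% of the estimated Prtn3 counts and the full-length transcript 18.9%. The full-length share was 2.34% to 15.9% in the KO libraries. It was 4.87%, 6.05%, 47.6% and 1.01% in WT 15416, 15417, 15418 and 15420. The full-length transcript had 887.5 estimated counts in WT 15418 and 525.9 in KO 15412, the 2 libraries with the most Elane. It did not follow Elane throughout, with 182.1 in KO 15415 (2 Elane counts) and 92.0 in KO 15405 (5 Elane counts). The 4 libraries with no Elane count had 3.16 to 12.8, and WT 15417, with 23 Elane counts, had 12.7. By these estimates, which were not checked on reads, the broad detection of Prtn3 rested mostly on the short transcript. Some exonic bases of the gene also overlap Plppr3 on the opposite strand. Anxa1 had 52.6% of its estimated counts on protein-coding transcripts, with 23.9% on a retained-intron transcript and 22.8% on a processed transcript. The next lowest protein-coding shares among members with counts were 72.3% (Mcpt8), 77.7% (Prg3) and 81.6% (Hdc).

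The secondary granule genes had another library at their top. Ngp, neutrophilic granule protein, was at 0 to 163 CPM in the KO libraries, with a median of 0.362 CPM. In the WT libraries it was at 0, 0, 42.2 and 1.56 CPM. Counts in KO 15412, KO 15415 and WT 15418 were 5283, 1329 and 571, and no other library exceeded 11. Its log2 fold change was 1.93 ± 2.38 (SE, edgeR adjusted p = 0.720) and turned to -1.66 without those 3 libraries.

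Ltf (lactoferrin, an iron-binding antimicrobial protein) and Camp (the cathelicidin precursor) had the same 3 libraries on top. Ltf was at 1.71 to 83.8 CPM in the KO libraries (median 5.88) and at 0, 0, 42.3 and 0.991 CPM in the WT libraries. Every KO library thus had Ltf counts, 28 to 2710, while 2 of 4 WT libraries had none, but the ranges overlapped (log2 fold change 1.18 ± 1.75, SE, edgeR adjusted p = 0.773). Camp was at 0 to 78.1 CPM in the KO libraries (median 1.21) and at 0, 0.710, 54.8 and 0.566 CPM in the WT libraries.

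The other members of this class were lower. Lcn2 (lipocalin 2, which binds siderophores), Cd177 (a surface protein of neutrophils), Mmp8 (neutrophil collagenase) and Mmp9 (gelatinase B) all peaked in KO 15412, at 18.6, 8.88, 10.1 and 10.1 CPM. Chil3, a chitinase-like protein, stayed between 0.379 and 5.24 CPM with its peak in WT 15420. WT 15416, which had no count of Ltf, Camp, Ngp or Mmp8, had 32 counts of Lcn2 and 31 of Cd177. Of the 8 members of the class, 6 had a log2 fold change above 0 and 2 below, with a median of 0.77 and a range of -0.49 to 1.93.

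S100a8 and S100a9 encode the subunits of calprotectin, which is stored in the cytosol and sequesters metal ions. S100a8 was at 0 to 449 CPM in the KO libraries (median 10.6) and at 0.607, 6.12, 299 and 6.09 CPM in the WT libraries. S100a9 was at 0 to 237 CPM (median 7.97) and at 0, 1.69, 102 and 1.98 CPM. The genes lie 22.6 kb apart on chromosome 3, and both had KO 15412 highest and WT 15418 next. Retnlg, a secreted resistin-like protein, had 456 of its counts in KO 15412 and at most 25 in any other library.

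Padi4, the peptidylarginine deiminase that citrullinates histones during the release of neutrophil extracellular traps, gave the lowest p-value of the members. It was at 0.379 to 13.9 CPM in the KO libraries, with a median of 7.40 CPM. The WT libraries had 0, 1.33, 2.44 and 0.566 CPM, so that 5 of 6 KO libraries were above all WT libraries, and KO 15409 lay among them. The group means were 7.32 ± 5.81 CPM (SD, n = 6) and 1.08 ± 1.06 CPM (SD, n = 4). The log2 fold change was 2.73 ± 1.13 (SE) with an edgeR adjusted p of 0.214. DESeq2, testing against a log2 fold change of 0.1, gave 2.74 and an adjusted p of 0.0908, which passes the limit of 0.1. With no fold-change threshold DESeq2 gave 0.0516.

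Anxa1, annexin A1, a cytosolic protein that many cell types express and that limits neutrophil recruitment, was at 25.5 to 74.9 CPM in the KO libraries (median 66.7) and at 34.4, 68.7, 79.1 and 142 CPM in the WT libraries. The groups overlapped, and its log2 fold change of -0.55 ± 0.41 (SE, edgeR adjusted p = 0.503) had the smallest standard error of the members.

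Of the progenitor and surface genes, Ms4a3 (a membrane protein of granulocyte and monocyte progenitors) and Fcnb (ficolin B, a lectin of developing myeloid cells) were highest in WT 15418, at 26.5 and 49.6 CPM, with KO 15412 next at 17.5 and 31.1 CPM. Ly6c2, one of the genes of the Ly6C antigen, was at 14.3 CPM in KO 15412, 12.3 CPM in WT 15418 and at most 2.96 CPM elsewhere. Itgam encodes CD11b, an antigen in the biotinylated set of the sort. Its transcript was at 4.60 to 27.7 CPM in the KO libraries, with a median of 12.4 CPM. The WT libraries had 0.0758, 6.92, 7.99 and 1.42 CPM, so 3 of 6 KO libraries lay above all WT libraries (log2 fold change 1.81 ± 0.91, SE, edgeR adjusted p = 0.309).

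Ly6g, whose product the Gr1 antibody binds, was counted in KO 15412 (100 counts) and KO 15415 (15 counts) and in no other library. Cd3e had no count in any library. Cd3d had 4 to 78 counts and Cd3g at most 8. Ly6c1 was highest in WT 15416, with 281.7 CPM, against at most 86.6 CPM in the KO libraries. Of the other antigens stained, Kit was at 78.2 to 388.8 CPM, Ly6a (Sca1) at 5.55 to 206.7 CPM, Slamf1 (CD150) at 9.86 to 76.9 CPM and Cd48 at 0.271 to 13.3 CPM.

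Both transcription factor members act in granulocyte development. Cebpe, required for the passage to secondary granules, was at 0 to 2.01 CPM in the KO libraries (median 0.289) and at 0, 0, 5.18 and 0 CPM in the WT libraries. Gfi1, a repressor that also acts in stem cells, was at 3.95 to 30.5 CPM in the KO libraries (median 27.2) and at 1.29, 12.8, 16.3 and 27.3 CPM in the WT libraries. Gfi1 had no dominant library, with at most 15.8% of its summed CPM in any one (log2 fold change 0.65 ± 0.68, SE, edgeR adjusted p = 0.655).

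Eosinophil granule genes were high in few libraries, of both genotypes. Prg2, the major basic protein, was at 0 to 85.4 CPM in the KO libraries, with a median of 0.450 CPM. In the WT libraries it was at 0, 1.33, 38.2 and 0 CPM. KO 15415, WT 15418 and KO 15411 led with 1299, 516 and 400 counts, whereas KO 15412, the library richest in secondary granule transcripts, had 0 counts of Prg2, Prg3 and Epx, where 3 counts would be 0.0970 CPM. The log2 fold change of Prg2 was 0.81 ± 2.2 (SE, edgeR adjusted p = 0.881).

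Prg3, a paralog of Prg2 that lies 4.58 kb from it on chromosome 2, was counted only in KO 15411 (84), KO 15415 (137) and WT 15418 (112). Epx, the eosinophil peroxidase, lies 59.6 kb from Mpo on chromosome 11 and is its close relative. It had 305 counts in KO 15415, 44 in WT 15418 and none elsewhere. Mpo and Epx did not share a top library: Mpo was 16140 counts in WT 15418 and 913 in KO 15415.

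Mast cell and basophil genes did not move as one set. Mcpt8, the basophil protease, was at 7.69 CPM in KO 15411, 0.789 CPM in KO 15415, 0.799 CPM in WT 15417 and 15.5 CPM in WT 15418, and at 0 in the other 6 libraries. Cpa3, carboxypeptidase A3 of mast cell granules, had 211 counts in WT 15416, 54 in KO 15415, 41 in WT 15418, 20 in KO 15411, 4 in KO 15412 and none in the other 5. Its log2 fold change was -2.62 ± 1.73 (SE, edgeR adjusted p = 0.444). WT 15416 was thus highest for Cpa3 and had no Mcpt8. The mast cell proteases Cma1 (237 counts) and Tpsb2 (104 counts) were also found there, with 1 count of Tpsb2 in WT 15417 and none of either elsewhere. They were named after their values were seen, and other genes of the same list were lowest in WT 15416, with Slc18a2 at 4.55 CPM, Csf2rb2 at 0.455 CPM and Cd200r3 at 0.

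Hdc, the enzyme that makes histamine, was at 2.53 to 19.0 CPM in the KO libraries (median 5.15) and at 4.70, 0.710, 12.9 and 0 CPM in the WT libraries. Ms4a2, a subunit of the high-affinity IgE receptor, had 15 counts in KO 15411, 12 in KO 15412 and 2 in KO 15405, and no count in any WT library. Its edgeR unadjusted p was 0.0464 and its adjusted p 0.256, and its fitted fold change depends on the prior count and is no bound. Of the genes without a row, the transcript tables gave Gzmb, granzyme B, 5 estimated counts in KO 15412 and none elsewhere. Fcer1a, the IgE-binding subunit of the same receptor, had 0 in all 10 libraries.

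The 2 shared members differed in breadth. Srgn encodes serglycin, the proteoglycan that packs proteases into granules in many blood cells. It was at 28.7 to 229 CPM in the KO libraries, with a median of 155 CPM, and at 77.4, 82.3, 59.7 and 114 CPM in the WT libraries. Of the KO libraries, 5 of 6 had more than WT 15417 and 3 of 6 more than WT 15420, the highest of WT, while KO 15409 was the lowest of all (log2 fold change 0.82 ± 0.47, SE, edgeR adjusted p = 0.375). Cst7, cystatin F, an inhibitor of granule proteases, was counted in all 6 KO libraries, at 0.433 to 4.30 CPM, and in WT 15418 alone of the WT libraries, at 3.85 CPM. It had a log2 fold change of 1.30 ± 1.40 (SE, edgeR adjusted p = 0.666). Without WT 15418 the WT group had no Cst7 count and the adjusted p was 0.0872, the only member called in that fit, in which 3.67% of the 16616 genes tested were called.

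**Figure D2:**
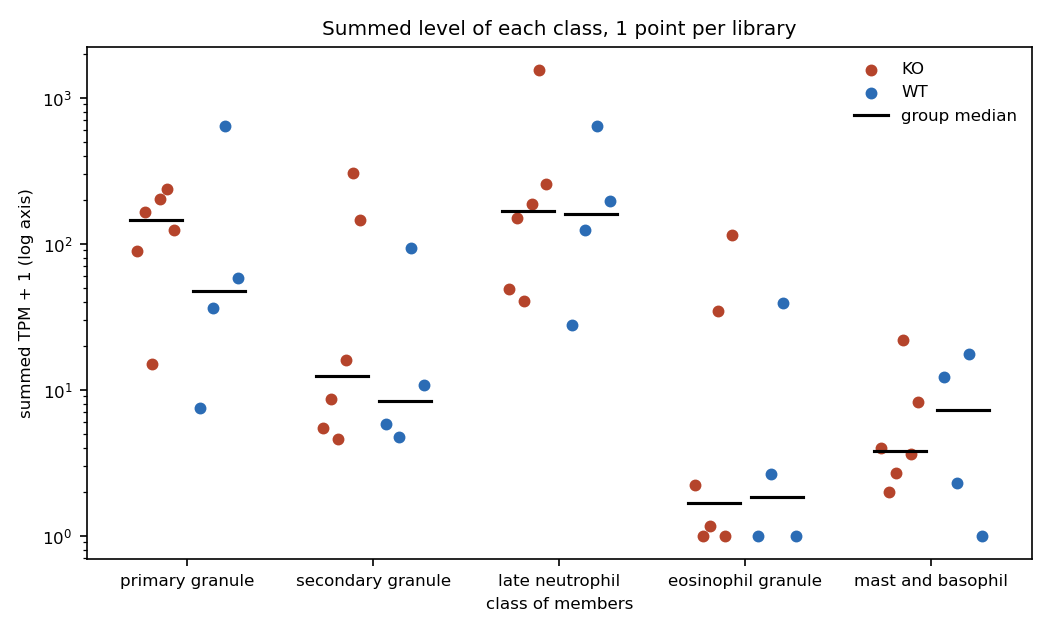
Summed level per length (TPM, in which all transcripts of a library have the same sum) plus 1, on a log axis, of 5 classes of members, with 1 point per library and a line at each group's median. In every class the KO and WT points overlap, and 1 to 3 libraries stand well above the rest.

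Summed by class and scaled for length as TPM, the libraries differed in which kind of granule transcript they held. The primary class summed to 14.1 to 236.8 TPM in the KO libraries (median 143.4) and to 6.49, 35.1, 635.6 and 57.5 TPM in the WT libraries. The secondary class summed to 3.63 to 303.8 TPM (median 11.4) and to 4.80, 3.72, 93.0 and 9.83 TPM. The eosinophil class summed to 0 to 114 TPM (median 0.690) and to 0, 1.67, 38.1 and 0 TPM. The mast and basophil class summed to 1.005 to 20.9 TPM (median 2.83) and to 11.2, 1.30, 16.5 and 0 TPM. Every class had overlapping groups.

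Within a library, the make-up set the 3 granule-rich libraries apart from each other. In WT 15418 the primary class made up 81.2% of the summed TPM of the 4 granule classes and the secondary class 11.9%. In KO 15412 these shares were 43.6% and 55.9%, with no eosinophil transcript. In KO 15415 they were 31.5% and 37.2%, and the eosinophil class made up 29.4%. In WT 15416, whose granule transcripts summed to just 22.5 TPM, the mast and basophil class made up 49.9%. Of its 11.2 TPM there, Cpa3 alone made up 9.61 TPM and Hdc 1.64 TPM, with Mcpt8 and Ms4a2 at 0. Per length, Ngp was at 0.0655 of the level of Mpo in WT 15418, at 1.94 times Mpo in KO 15412 and at 2.82 times Mpo in KO 15415. In 5 of the other 7 libraries the primary class exceeded 74%, and there Prtn3 alone made up 71.9% to 95.8% of the primary sum, by estimate mostly on its retained-intron transcript. Prtn3 made up 16.3% of the primary sum in WT 15418, 52.0% in KO 15412 and 76.1% in KO 15415.

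**Figure D3:**
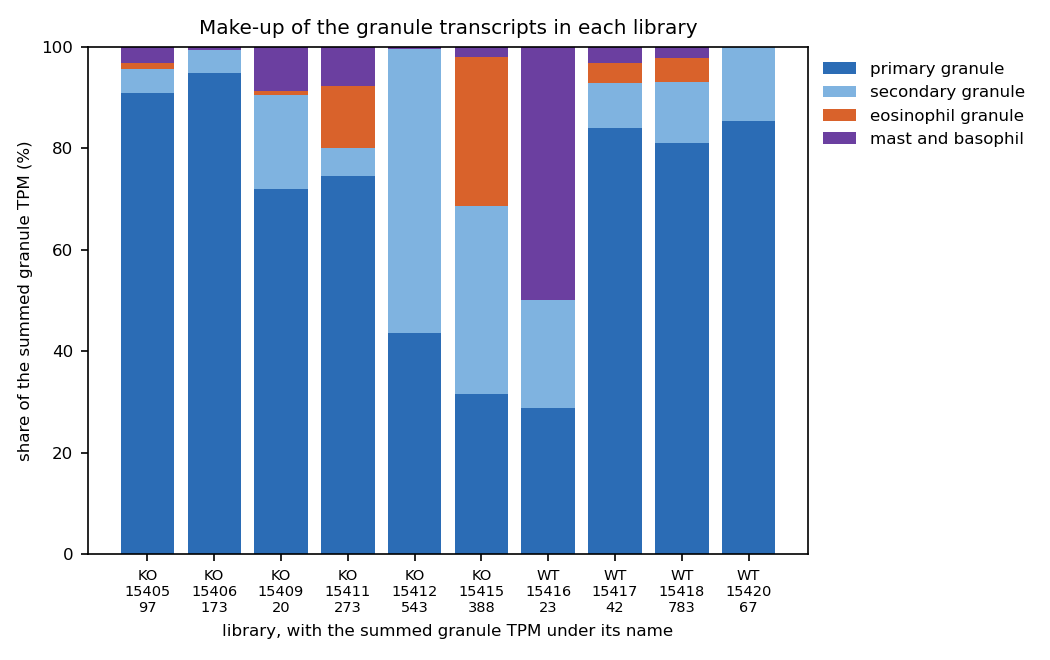
Share of the summed granule TPM (percent, stacked to 100) taken by the primary, secondary, eosinophil and mast and basophil classes in each library, with the summed TPM under each name. The primary share includes Prtn3, 71.9% to 95.8% of the primary sum in 5 of the libraries. The mast and basophil share of WT 15416 is mostly Cpa3, at 9.61 of 11.2 TPM. WT 15418 is mostly primary, KO 15412 mostly secondary, KO 15415 holds the largest eosinophil share (29.4%) and WT 15416 the largest mast and basophil share (49.9%).

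The order of the libraries was shared to different degrees within and between classes. Over 30 members with more than 3 counts in at least 3 libraries, Spearman's rho across the 10 libraries had a median of 0.77 among the 6 pairs of primary members, 0.65 among the 28 pairs of secondary members and 0.67 between these classes (32 pairs). Among the late neutrophil members it was 0.48 (10 pairs), and between them and the secondary members 0.65 (40 pairs). The single pair of eosinophil members, Prg2 and Prg3, had 0.84, and the 3 pairs of mast and basophil members had a median of 0.55. Between eosinophil and secondary members it was 0.29 (16 pairs), and between mast and basophil and secondary members 0.32 (24 pairs). Between eosinophil and mast and basophil members it was 0.69 (6 pairs), with Prg2 and Mcpt8 at 0.83. The pairs most alike were Camp with Fcnb (0.97), S100a8 (0.97) and S100a9 (0.97). All pairs share the same libraries and their depth, and many values are 0, so these figures are descriptions.

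Against the genotype, 0 of 32 members passed an adjusted p of 0.1 in edgeR's quasi-likelihood test, where 3.99% of all 16725 genes tested did (221 higher, 1.32%, and 446 lower, 2.67%). Padi4 and Ms4a2 had an unadjusted p under 0.05, both higher in KO, 2 of 32 beside 18.8% of all genes tested (8.60% higher and 10.2% lower). Log2 fold changes were above 0 for 20 members and below 0 for 12, with a median of 0.46 beside 0.06 over all genes tested. No member had groups of CPM that did not overlap, against 6.36% of all genes tested (2.88% with KO higher and 3.48% with KO lower). The members were measured with less precision than other genes, by a standard error derived from the edgeR test statistic. Its median was 1.70 on the log2 scale for the members, against 0.47 over all genes tested. DESeq2 called 1 member higher, Padi4, both when testing against a fold change of 0.1 on the log2 scale, where 3.56% of genes were called higher, and with none, where 6.08% were.

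**Figure D4:**
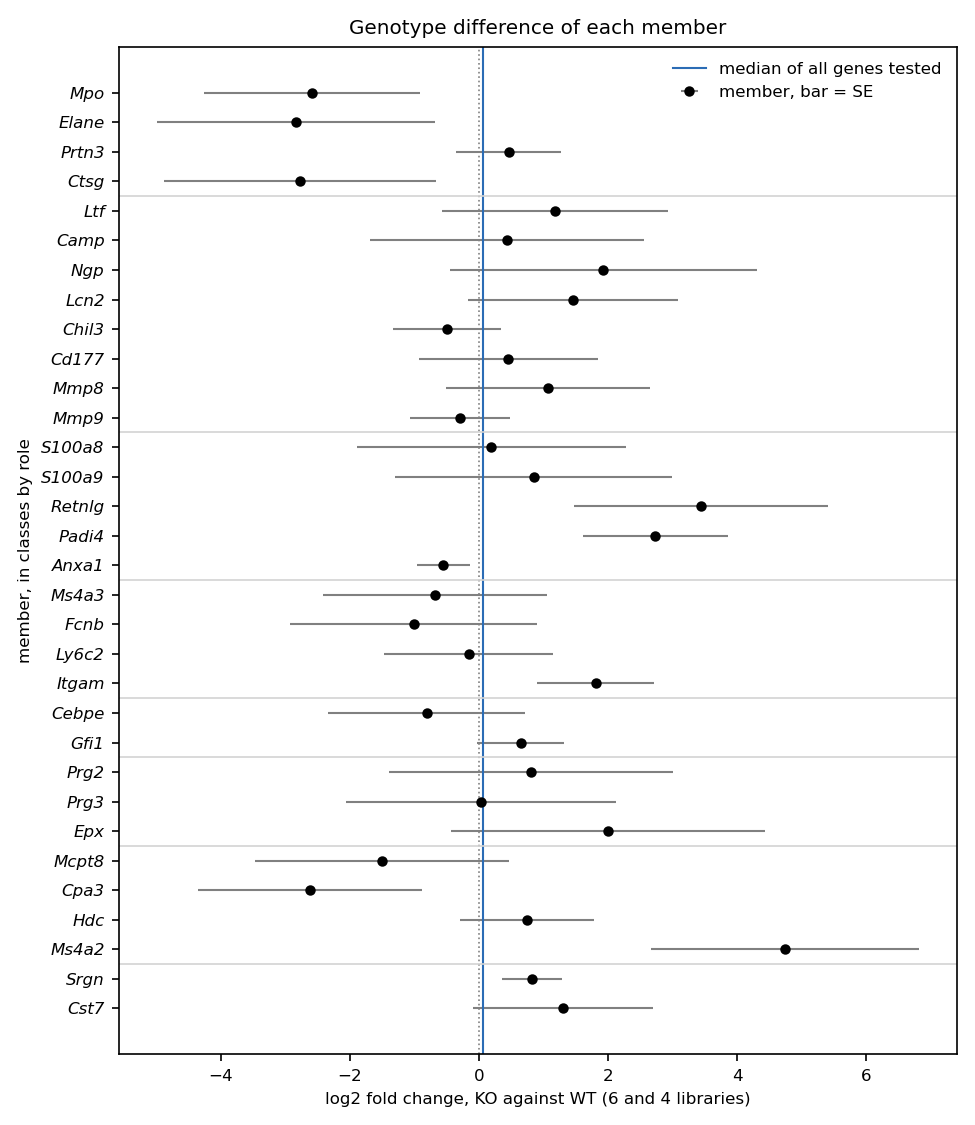
Log2 fold change of KO against WT for each member (points) with its standard error (bars), grouped by role, with the median of all genes tested as a line. Mpo, Elane, Ctsg and Cpa3 lie furthest below 0 and Ms4a2, Retnlg and Padi4 furthest above, and none passed an adjusted p of 0.1.

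Without KO 15412, KO 15415 and WT 15418, 0 members were called and 4 had an unadjusted p under 0.05 (Ltf, Padi4, Cebpe and Cst7), and the log2 fold changes of Mpo, Elane and Ctsg were 1.96, 0.88 and 2.54. In that fit 0 genes were called in either direction over the whole table, with 1266 higher and 1532 lower at an unadjusted p under 0.05. In the edgeR fit of all libraries, 18.8% of all genes tested had an unadjusted p under 0.05. WT 15418 was the only WT library with counts of Cebpe or Cst7, so without it WT had none of either. Their fitted fold changes then depend on the prior count and are no bound. Cebpe had at most 6 counts in any KO library that was left. Padi4 stayed higher in KO in each of the fits run.

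**Figure D5:**
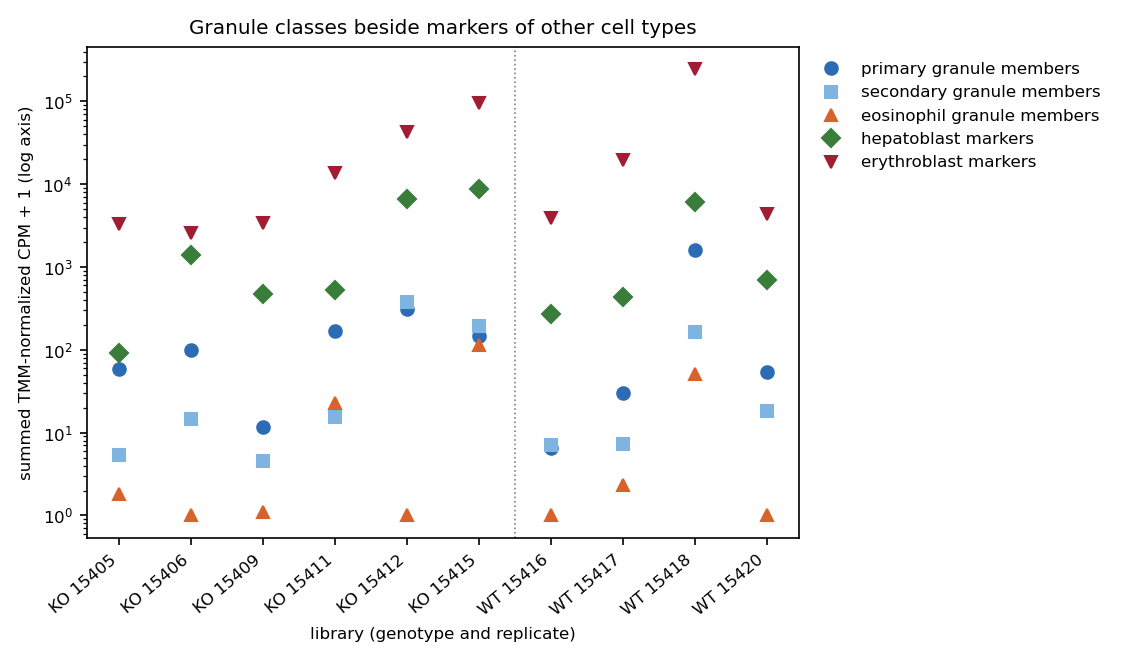
Summed TMM-normalized CPM plus 1, on a log axis, of 3 granule classes and of hepatoblast and erythroblast markers in each library. The 3 libraries with the most secondary granule transcripts (KO 15412, KO 15415 and WT 15418) also have the most hepatoblast and erythroblast transcripts.

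Markers of hepatoblasts and erythroblasts were highest in the libraries richest in secondary granule transcripts, while the other marker lists had other orders of libraries. The 3 libraries highest in the secondary class were the 3 highest in the hepatoblast list (8 of 8 genes in the table, none at 0 throughout) and in the erythroblast list (10 of 11 in the table). The summed hepatoblast level was 89.9 to 8784 CPM in KO (median 959.8) and 266.9 to 6020 CPM in WT (median 566.3). The summed erythroblast level was 2577 to 96348 CPM (median 8545) and 3958 to 244134 CPM (median 12065). The megakaryocyte list was highest in KO 15415, KO 15411 and KO 15412, with 251.2 to 3764 CPM in KO and 275.1 to 1279 CPM in WT. The monocyte list spanned 71.4 to 161.5 CPM in KO and 18.0 to 145.7 CPM in WT, and the lymphoid list reached at most 14.3 CPM, in WT 15416. The macrophage list spanned 205.5 to 922.2 CPM in KO, with KO 15409 highest, and 101.2 to 709.5 CPM in WT. Of its 14 genes, 12 had a log2 fold change below 0 and 2 above, Mrc1 (0.22) and Vcam1 (0.59), its most abundant. Marco, named after its values were seen, was at 0 in all 6 KO libraries and at 3.41 to 14.3 CPM in WT. The stem cell list spanned 1564 to 2287 CPM in KO and 421.1 to 1400 CPM in WT, with WT 15416 lowest. The part of these other cells in the granule transcripts was not tested.

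Of 43 other neutrophil genes tested, 0 were called by edgeR, beside 3.99% of all genes tested, and the median log2 fold change was 0.08. At an edgeR unadjusted p under 0.05, 3 were higher (Ly6g, Fpr2 and Mmp25, named after their values were seen), beside 8.60% of all genes tested. The most abundant were Calr, Lamp1 and Lyz2, with means of 622.4, 324.5 and 188.9 CPM and log2 fold changes of -0.22, -0.33 and 0.54. Of 9 other eosinophil genes 0 were called, and 1 (Ear1, named likewise) was lower at an edgeR unadjusted p under 0.05, beside 10.2% of all genes tested. Ccr3, Ear6 and Alox15 led that list, and Ear6 had 263 counts in KO 15415, 39 in WT 15418 and 1 in KO 15411. The first of these were also the 2 libraries with Epx counts.

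Among 24 other mast cell and basophil genes tested, 1 was called lower in KO and 0 higher, beside 2.67% lower and 1.32% higher of all genes tested. At an edgeR unadjusted p under 0.05 there were 4 in each direction, beside 10.2% lower and 8.60% higher of all genes tested. The gene called was Il1rl1, the receptor for interleukin 33, which activates mast cells and basophils. It was at 0.704 to 2.23 CPM in the KO libraries (median 1.34) and at 2.69 to 12.5 CPM in the WT libraries (median 7.46), without overlap (log2 fold change -2.44 ± 0.57, SE, edgeR adjusted p = 0.0824). It was lower in KO in all 19 alternative fits (-2.83 to -2.08), but in 8 of them it was not called, with an adjusted p of 0.134 to 0.271: with Xist as covariate, without the 3 libraries named above, and without any one of KO 15405, KO 15406, KO 15411, KO 15412, KO 15415 and WT 15416. Csf2rb, the shared receptor subunit for interleukin 3, interleukin 5 and GM-CSF, also had groups without overlap, at 28.4 to 47.5 CPM in KO and 0.228 to 18.2 CPM in WT, but its adjusted p was 0.186. It was named after its values were seen, and 2 of the 24 genes had groups without overlap, beside 6.36% of all genes tested. The most abundant genes of the list were Itga2b, Kit and Cd63, with log2 fold changes of 0.84, 1.05 and 0.02 and adjusted p-values of 0.509, 0.139 and 0.971.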

How the data were processed

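LT-HSCs had been sorted, made into libraries by SmartSeq2 without strand marking and sequenced as single-end reads. Library totals and the floor of 3 counts are in the report. Per the labels, the submitters' notes name bcl2fastq 2.20, kallisto 0.44.0 and the builds mm10 and GRCm38. The authors deposited a table of gene counts, and a table per sample with the estimated counts and TPM of 133944 transcripts. Of these, 99.6% were matched to symbols through Gencode vM21, a later release than the authors used, and 97.5% of the gene counts lay within 1 count of the summed estimated counts. Columns were assigned to samples by title.

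The edgeR 4.0.16 test (R 4.3.3) took genes reaching 11 summed counts, with TMM normalization, robust quasi-likelihood fit, genotype alone, Benjamini-Hochberg over all genes, threshold 0.1. No litter is given, so p-values measure only the spread between these samples. CPM are TMM-normalized. On simulated KO against WT counts for 16512 genes, 199 of 200 genes changed at a large fold (median fitted log2 fold change of raised genes 3.01) were recovered, with 15 false calls. The changed genes were drawn from well-counted genes, with the same dispersion for every gene and no outlying library. The simulation therefore does not show how well changes would be recovered in members near 0. Alternatives were DESeq2 1.42.0, other filters and normalizations, a length offset, Xist as covariate, and leaving out libraries. One, leaving out the 3 libraries richest in hepatoblast genes, was chosen after seeing the data. All members, the 3 most abundant genes and any called gene of each companion list, and the antigens of the sort are named by rule. Members and lists were chosen with earlier results of these data known. Promoter windows came from RefSeq, GRCm38.p6, and 31 of 34 genes matched.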

Additional observations from a re-analysis of the deposited data

Results flagged for a closer look

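In each group the highest or lowest library was compared with its nearest neighbour on log2(CPM + 1), by Dixon's 95% limit. Of 63 groups tested, 12 had such a library. Chance gives about 1 in 20 where values vary continuously, but for 5 of the 12 (Cebpe and Cst7 in WT, Prg3 in WT, and Epx in both genotypes) every other library of the group was at 0, so that any count reaches the limit, and the number is not compared with chance. In WT, replicate 15418 stood above the other 3 libraries for Ctsg (86.6 CPM), Camp (54.8 CPM), Mmp8 (4.21 CPM), Cebpe (5.18 CPM), Prg3 (8.28 CPM), Epx (3.25 CPM) and Cst7 (3.85 CPM). These genes belong to 5 of the 8 classes. In KO, 3 different libraries stood above the rest: replicate 15412 for Retnlg (14.1 CPM), replicate 15415 for Epx (20.1 CPM) and replicate 15411 for Mcpt8 (7.69 CPM). KO replicate 15409 stood below the other 5 KO libraries for Prtn3 (8.02 CPM) and Gfi1 (3.95 CPM), members that were found in all 10 libraries. KO 15409 had 17940128 counts.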

How the results depend on the processing

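With 6 and 4 libraries and members at or near 0 in many of them, the median standard error was 1.70 on the log2 scale, and 1 library decided the sign of 18 members. Of 626 alternative values of single members, 574 kept both direction and side of the threshold, 49 changed direction and 3 newly passed the threshold; 10 of 32 members never changed direction. Granule members called numbered 0, with 2 at an unadjusted p under 0.05, and 1 with DESeq2 under either setting (Padi4); leaving out single libraries gave 0 to 1, the 1 being Cst7 without WT 15418. No cause of these changes was tested.

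Genes called over the whole table numbered 221 higher and 446 lower. They were 585 higher with DESeq2 and its fold-change threshold, 998 higher and 1145 lower without that threshold, 44 higher with the length offset, and 0 in either direction with Xist as covariate (866 and 1507 at an unadjusted p under 0.05), at an adjusted p under 0.05 (1438 and 1701) and without the 3 libraries richest in hepatoblast genes. Leaving out single libraries gave 0 to 405 higher and 0 to 598 lower, with 0 lower without any one of KO 15405, 15406, 15411, 15412 and 15415 and WT 15416, and at most 1 higher.

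With Xist as covariate, log2 fold changes turned to -0.66 for Ltf, -4.28 for Ngp, -4.0 for Lcn2, -2.06 for Cd177, -3.61 for Mmp8, -5.27 for Prg2, -7.14 for Prg3 and -0.20 for Hdc, and 7 values beyond 10 in size are not given. Without the 3 libraries richest in hepatoblast genes they turned to 1.96 for Mpo, 0.88 for Elane, 2.54 for Ctsg, -1.66 for Ngp, -1.78 for Lcn2, -2.39 for Cd177, 2.44 for Ms4a3, 0.76 for Fcnb, 4.67 for Cebpe and 2.82 for Mcpt8. In all, 7 values are missing because the gene was no longer tested.

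Leaving out single libraries changed the direction of 18 members, whose lowest and highest log2 fold changes were -3.39 and 3.20 (Mpo), -5.57 and 3.36 (Elane), -4.08 and 6.22 (Ctsg), -0.99 and 5.55 (Camp), -0.93 and 0.029 (Chil3), -0.34 and 1.56 (Cd177), -0.26 and 3.84 (Mmp8), -0.85 and 0.083 (Mmp9), -2.22 and 4.43 (S100a8), -1.48 and 5.37 (S100a9), -2.11 and 3.81 (Ms4a3), -3.15 and 3.08 (Fcnb), -1.81 and 2.12 (Ly6c2), -1.45 and 6.57 (Cebpe), -1.36 and 5.24 (Prg2), -1.41 and 8.11 (Prg3), -6.70 and 8.74 (Epx) and -4.61 and 2.38 (Mcpt8). WT 15418 set the upper end for Mpo, Elane and Ctsg. Without WT 15418 the WT group had no count of Cebpe, Prg3 or Epx, and without KO 15415 the KO group had no Epx count. Fold changes fitted with a group at 0 depend on the prior count and are no bound.

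With 1 choice changed at a time, the log2 ratio of the KO to the WT median CPM of each class moved by less than the spread between libraries, apart from the mast and basophil class: -0.92, -2.84 without Hdc, its most abundant member, and up to 1.35 without WT 15416 or WT 15418 (lowest value without one library -1.76). The matrix and inhibitor class went from 0.98 to 1.89 without Srgn, close to that spread (0.93). The paper describes the controls as littermates, but the labels give no litter, so no paired analysis was possible.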
